A study of Mus musculus with 25 samples.

Results

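10 genes of the liver's blood vessels were followed through RNA sequencing of mouse liver and liver tumors, 10 of the 48795 genes in the expression tables. The genes were chosen by their levels in tumors against other tissue, with earlier results of these samples known, and their symbols were matched to Ensembl identifiers, and all 10 were among the 15625 genes tested. Of these, Stab2, Lyve1 and Clec4g mark the sinusoidal endothelium. Plvap and Cd34 mark capillary endothelium, Kdr, Esm1 and Apln are genes of growing vessels and their tip cells, Vegfa encodes the growth factor that Kdr receives, and Aplnr encodes the receptor of apelin, the product of Apln. Because of this choice, values that involve tumors are given for these 10 genes as a description and without p-values. Their calls in tumors are counted, but nothing is read from those counts.

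All 25 samples came from male C57BL/6J mice. In 3 of the 5 groups the mice had received 25 mg/kg of the liver carcinogen diethylnitrosamine (DEN) intraperitoneally at 2 weeks of age, and from weaning all mice ate either a control diet (CD) or a Western diet (WD). The groups were liver of untreated mice on either diet (nonDEN L-CD, here also untreated CD liver, 3 samples, and nonDEN L-WD, untreated WD liver, 4 samples), liver of DEN-treated mice on the control diet (DEN L-CD, DEN CD liver, 4 samples), and, from DEN-treated mice on the Western diet, tumors (DEN T-WD, 6 samples) and the tissue around them (DEN PT-WD, 8 samples). Mice were 36 weeks old at harvest by the legend of the study's design, whereas a supplementary legend gives a range of ages from that week upward. Each library measured a whole piece of tissue. Liver without tumors from DEN-treated mice on the Western diet was not analysed here. A diet difference under DEN therefore compares tissue beside tumors with liver. By the study's account, tumors in DEN-treated mice on the control diet were too small to part reliably from the tissue around them. DEN CD liver may therefore hold small tumors, and their part in its values was not tested. Below, tumors are the DEN T-WD samples alone. The labels do not say which tumor and which peritumoral sample came from the same mouse, nor that samples of a group are separate mice, so p-values measure the spread between these samples. Totals lay between 21530083 and 38074411 expected counts per library. Tumor replicate 5 stood apart, with 31860 TPM summed over 8 hepatocyte markers against 107000 to 127900 in the other tumors. Peritumoral tissue had 38690 to 67450 and untreated WD liver 50370 to 65830, so the other tumors lay above both sums. The 8 genes went both ways between tumors and peritumoral tissue, from -1.41 (Cyp3a11) to 1.04 (Apoa1) on the log2 scale with a median of -0.20, 2 higher and 3 lower at the adjusted p, where 19.5% of all tested genes were higher and 18.1% lower, and their part in the differences below was not tested.

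Sinusoids are the leaky capillaries of the liver, lined by endothelial cells with open pores and no continuous basement membrane, and scavenger receptors such as stabilin-2 let these cells clear molecules from the blood. In capillarization, known from chronic liver disease and liver cancer, the lining takes on features of ordinary capillaries, among them CD34 and a basement membrane of type IV collagen. New vessels are led by tip cells, which follow VEGF-A through the receptor VEGFR2 and produce endocan (Esm1) and apelin.

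The promoters of 3 genes that stood higher in tumors, Apln, Esm1 and Cd34, are shown beside that of Clec4g, which stood lower there, to put the letters upstream of genes with opposite patterns side by side. The sequences are the 250 bases before the RefSeq start on GRCm38.p6, read 5′ to 3′ on the gene's strand. Capitals mark AGGAAG or its reverse complement CTTCCT, a form of the sites bound by ETS factors, which are used widely in endothelial genes. Other forms of these sites were not marked or counted.
Apln, chrX:48034854-48035103, minus strand: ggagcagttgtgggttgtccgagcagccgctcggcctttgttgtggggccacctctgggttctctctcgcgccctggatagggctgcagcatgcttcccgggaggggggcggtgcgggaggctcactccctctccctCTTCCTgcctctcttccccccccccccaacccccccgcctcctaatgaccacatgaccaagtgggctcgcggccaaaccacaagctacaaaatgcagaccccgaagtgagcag
Esm1, chr13:113209409-113209658, plus strand: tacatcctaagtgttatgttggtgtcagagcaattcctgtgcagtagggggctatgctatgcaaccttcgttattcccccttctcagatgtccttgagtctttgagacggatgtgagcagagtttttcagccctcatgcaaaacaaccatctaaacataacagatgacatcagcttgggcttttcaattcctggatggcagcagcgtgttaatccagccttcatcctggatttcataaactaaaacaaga
Cd34, chr1:194938571-194938820, plus strand: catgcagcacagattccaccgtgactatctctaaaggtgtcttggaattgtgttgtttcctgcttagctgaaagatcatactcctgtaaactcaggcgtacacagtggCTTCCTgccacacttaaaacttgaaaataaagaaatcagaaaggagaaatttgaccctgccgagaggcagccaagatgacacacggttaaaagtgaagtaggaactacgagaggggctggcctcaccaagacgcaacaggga
Clec4g, chr8:3720652-3720901, minus strand: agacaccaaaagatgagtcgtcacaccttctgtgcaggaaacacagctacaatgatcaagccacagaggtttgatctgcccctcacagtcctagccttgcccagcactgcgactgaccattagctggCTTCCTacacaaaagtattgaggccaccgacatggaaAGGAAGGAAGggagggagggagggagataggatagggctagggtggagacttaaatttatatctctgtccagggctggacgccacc
The ETS letters occurred once each for Apln and Cd34, not at all for Esm1, and 3 times for Clec4g, of which a pair overlap. On both strands, AGGAAG was found in 29.5% of all 32851 promoters of this length. Sequences were held for 7 of the 10 genes, all but Aplnr, Plvap and Lyve1. The HIF letters ACGTG, in 16.6% of all promoters, and the GATA letters AGATAA, in 9.99%, were in none of the 4 windows shown. Other forms of the HIF and GATA sites were not counted. A match describes letters and is not evidence of binding.

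The 3 sinusoidal genes had counts in every library, tumors included. On the TPM scale, which corrects for transcript length, Clec4g was the highest of them in each group, with means from 46.8 to 68.9 TPM. Stab2 had means from 12.2 to 24.6 TPM and Lyve1 from 5.41 to 14.9 TPM. In these bulk samples, fewer cells of a type and less RNA per cell cannot be told apart.

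Stab2, the scavenger receptor stabilin-2 (chromosome 10, 86841198 to 87008025, minus strand), was also used as the reference for ratios below. Its counts, normalized to TMM library sizes as all normalized counts here, were 1560, 1358 and 1234 in untreated CD liver, 1689, 1829, 2057 and 1604 in untreated WD liver, and 1407, 1565, 1470 and 1613 in DEN CD liver. In DEN PT-WD they ran from 1457 over a median of 2122 to 2250, and in DEN T-WD from 1255 over a median of 1766 to 1964. In these counts tumors overlapped each of the other groups, whereas on the TPM scale they lay above untreated CD liver and DEN CD liver, and the mean was highest in peritumoral tissue and lowest in untreated mice on the control diet. Tumors against peritumoral tissue gave a log2 fold change of -0.24 (SE 0.098). Against nonDEN L-WD the value was -0.07, and it was 0.01 without tumor replicate 5. Stab2 was higher in peritumoral tissue than in DEN CD liver by the adjusted p of edgeR (log2 0.42, SE 0.11, adjusted p = 0.0208).

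Clec4g, a C-type lectin of the sinusoidal lining (chromosome 8, 3707064 to 3720651, minus strand), was the member that stood lowest in tumors. It had 1529, 1311 and 1258 normalized counts in untreated CD liver, 1081, 1267, 1244 and 1071 in untreated WD liver, and 1351, 1366, 1180 and 1320 in DEN CD liver. Peritumoral samples lay between 1207 and 1679 with a median of 1356, whereas tumors lay between 542 and 1067 with a median of 939. In these counts no tumor reached the lowest library of any other group, although the nearest gap, to nonDEN L-WD, was small. On the TPM scale tumors, at 31.4 to 57.4 TPM, overlapped every other group. The log2 fold change was -0.68 (SE 0.12) against peritumoral tissue, from -0.745 to -0.575 when each library in turn was left out, and -0.41 (SE 0.14) against nonDEN L-WD.

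Lyve1, the hyaluronan receptor of sinusoidal and lymphatic endothelium (chromosome 7, 110850607 to 110863239, minus strand), moved with diet in a different way in the 2 treatments. It had 367, 452 and 646 normalized counts in untreated CD liver and 260, 298, 367 and 278 in untreated WD liver. In DEN CD liver the values were 416, 411, 253 and 368, whereas DEN PT-WD ran from 529 over a median of 646 to 741 and DEN T-WD from 572 over a median of 662 to 776. Tumors and peritumoral tissue overlapped, and both stood above every library of DEN L-CD and of nonDEN L-WD. By edgeR's quasi-likelihood test, with p adjusted over all 15625 genes, Lyve1 fell with the Western diet in untreated mice (log2 -0.70, SE 0.18, adjusted p = 0.00784) and was higher in peritumoral tissue than in DEN CD liver (log2 0.83, SE 0.15, adjusted p = 0.00264). The interaction of DEN with diet, the difference between those values, gave 1.52 on the log2 scale and the 1 call among the members (SE 0.24, adjusted p = 0.000562). Of all tested genes, 1.57% were called higher in this interaction. These p-values do not allow for the choice of the 10 genes with results known, which holds for every p given for them below. The fall of Lyve1 in untreated mice ran from -0.889 to -0.446 when each library in turn was left out. On the TPM scale the groups of untreated liver overlapped.

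**Figure D1:**
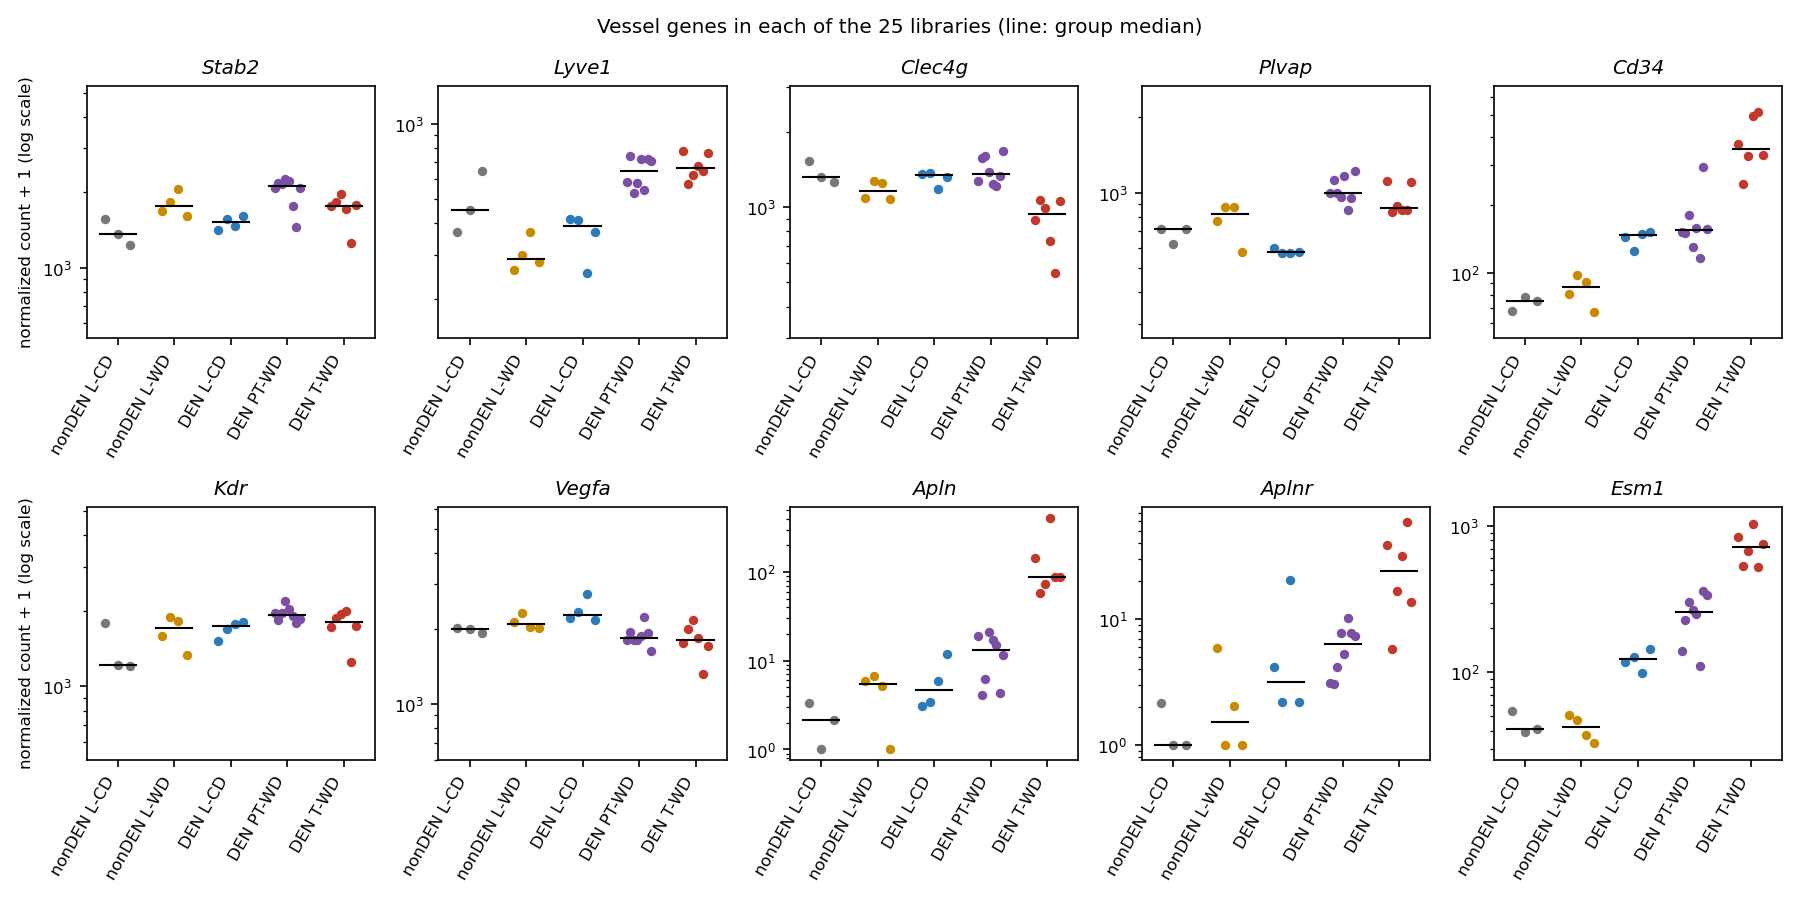
Normalized count plus 1, on a log axis, of the 10 genes in each library by group; points are libraries and lines group medians. Tumors sit apart from every other group for Apln, Esm1 and Clec4g, overlap 1 peritumoral library for Cd34, and overlap every group for Stab2 and Kdr and all but DEN CD liver for Vegfa, whereas on the TPM scale they overlap every group for Clec4g and Vegfa.

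Of the capillary genes, Plvap and Cd34 parted in tumors. Plvap, which forms the diaphragms of fenestrae and is a common vessel antigen of liver cancer (chromosome 8, 71497765 to 71511752, minus strand), had 716, 623 and 716 normalized counts in untreated CD liver, 770, 875, 877 and 580 in untreated WD liver and 602, 575, 572 and 579 in DEN CD liver. Peritumoral tissue ran from 855 over a median of 996 to 1220, and tumors from 839 over a median of 864 to 1113. Between these 2 tissues the log2 fold change was -0.14 (SE 0.094), and their ranges overlapped. Plvap was higher in peritumoral tissue than in DEN CD liver (log2 0.83, SE 0.11, adjusted p = 0.000293 by edgeR) and higher than in untreated WD liver (log2 0.41, SE 0.11, adjusted p = 0.0175). Its interaction of DEN with diet was 0.65 (SE 0.17, adjusted p = 0.0225).

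Cd34, the sialomucin by which pathologists stain capillarized vessels (chromosome 1, 194938819 to 194961279, plus strand), had 66.7, 77.0 and 74.5 normalized counts in untreated CD liver and 80.0, 97.4, 90.7 and 66.1 in untreated WD liver. In DEN CD liver it had 143, 124, 148 and 150. Peritumoral samples ran from 116 over a median of 154 to 295 and tumors from 247 over a median of 352 to 516. In these counts the groups fell into 3 levels. These were untreated liver, DEN CD liver with peritumoral tissue, and tumors, and the last 2 overlapped through peritumoral replicate 7 alone. On the TPM scale untreated WD liver overlapped both DEN CD liver and peritumoral tissue. Tumors stood 1.19 above peritumoral tissue on the log2 scale (SE 0.17). Cd34 was higher with DEN on the control diet (log2 0.96, SE 0.27, adjusted p = 0.0129 by edgeR) and higher in peritumoral tissue than in untreated WD liver (log2 0.99, SE 0.21, adjusted p = 0.00575). Both differences lay just below the fold threshold of 1 on the log2 scale. Peritumoral replicate 7 also had the highest summed TPM of 6 stellate cell markers, 435 against 222 to 309 in the other libraries of its group. The same held for 9 mural cell markers, 87.1 against 55.4 to 71.2. Its sum of 8 hepatocyte markers was the lowest of the group, 38690 against 52040 to 67450. The part of these cells in its Cd34 count was not tested.

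Vegfa and its receptor showed small differences. Vegfa, the growth factor (chromosome 17, 46016993 to 46032369, minus strand), had 2000, 1986 and 1910 normalized counts in untreated CD liver, 2127, 2301, 2034 and 2011 in untreated WD liver and 2211, 2328, 2757 and 2158 in DEN CD liver. It ran from 1620 over a median of 1831 to 2216 in DEN PT-WD and from 1322 over a median of 1793 to 2154 in DEN T-WD. The lowest library was a tumor, and tumors overlapped peritumoral tissue and both groups of untreated liver but lay below every library of DEN CD liver, which they overlapped on the TPM scale. Between tumors and peritumoral tissue the log2 fold change was -0.06 (SE 0.085), and it turned to 0.02 on the TPM scale and to 0.02 without tumor replicate 5. Vegfa was lower in peritumoral tissue than in DEN CD liver (log2 -0.34, SE 0.095, adjusted p = 0.0249 by edgeR).

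Kdr, the receptor VEGFR2 (chromosome 5, 75932827 to 75978458, minus strand), had 1794, 1217 and 1202 normalized counts in untreated CD liver, 1586, 1892, 1818 and 1337 in untreated WD liver and 1521, 1695, 1771 and 1806 in DEN CD liver. Peritumoral samples ran from 1792 over a median of 1931 to 2192 and tumors from 1250 over a median of 1807 to 1995. Every pair of groups overlapped in these counts, whereas on the TPM scale tumors and peritumoral tissue lay above both groups on the control diet. Over the 6 comparisons, log2 fold changes lay between -0.15 and 0.27, and the adjusted p by edgeR in the 4 comparisons without tumors was 0.185, 0.194, 0.243 and 0.290.

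Esm1, which encodes the secreted proteoglycan endocan (chromosome 13, 113209659 to 113218098, plus strand), was higher in DEN-treated tissue than in untreated liver and stood highest in tumors. It had 53.8, 37.95 and 40.09 normalized counts in untreated CD liver and 49.7, 46.4, 36.07 and 31.96 in untreated WD liver. DEN CD liver had 117, 127, 98.3 and 144, DEN PT-WD ran from 110.0 over a median of 257 to 356, and DEN T-WD from 524 over a median of 714 to 1028. Tumors stood above all other libraries, DEN-treated tissue stood above all untreated liver, and the 2 groups of untreated liver overlapped. Esm1 was higher with DEN on the control diet (log2 1.46, SE 0.35, adjusted p = 0.00482 by edgeR), and peritumoral tissue was higher than nonDEN L-WD (log2 2.60, SE 0.29, adjusted p = 9.16e-05). Peritumoral tissue was also higher than DEN L-CD, at a log2 fold change of 1.04 (SE 0.26, adjusted p = 0.0137), although the ranges overlapped. That last call was lost without DEN L-CD replicate 3 (0.95, adjusted p = 0.0576) and, by the fold alone, without DEN PT-WD replicate 3 (0.99), 7 (0.94) or 8 (0.94), with the replicate block (0.92) or on TPM centred by library (0.88). The Western diet alone gave -0.09 (SE 0.37, adjusted p = 0.888), and the interaction of DEN with diet was 1.13 (SE 0.44, adjusted p = 0.116). The log2 fold change of tumors against peritumoral tissue was 1.54 (SE 0.21), and 4.14 (SE 0.31) against nonDEN L-WD.

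Apln, the gene of the peptide apelin (chromosome X, 48025146 to 48034853, minus strand), was close to the limit of detection outside tumors. It had 2.34, 0 and 1.15 normalized counts in untreated CD liver, 4.88, 5.68, 4.12 and 0 in untreated WD liver and 2.12, 2.41, 4.86 and 10.99 in DEN CD liver. Peritumoral samples ran from 3.08 over a median of 12.2 to 20.2, whereas tumors ran from 57.3 over a median of 86.1 to 409. The lowest tumor stood above the highest library of every other group. The log2 fold change of tumors against peritumoral tissue was 3.65 (SE 0.49), and without tumor replicate 4, the highest library, it was 2.97. Against nonDEN L-CD, in which no library exceeded 3 counts, the mean of tumors was at least 41.0-fold higher, taking each of these libraries at 3 counts, and at least 25.6-fold higher without tumor replicate 4. By the same floor, peritumoral tissue, which did not overlap nonDEN L-CD, was at least 3.26-fold higher. In the comparisons without tumors the adjusted p by edgeR lay between 0.157 and 0.398, so none of these differences passed the test, and no library outside tumors held more than 20.2 normalized counts.

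Aplnr, the apelin receptor (chromosome 2, 85136225 to 85139923, plus strand), had the lowest counts of the 10 genes. It had 1.17, 0 and 0 normalized counts in untreated CD liver, 4.88, 0, 1.03 and 0 in untreated WD liver, and 3.18, 1.21, 19.4 and 1.22 in DEN CD liver. Peritumoral samples ran from 2.05 over a median of 5.33 to 9.26 and tumors from 4.78 over a median of 23.3 to 58.3. One tumor lay within the peritumoral range, and DEN L-CD replicate 3 and nonDEN L-WD replicate 1 lay within the tumor range. The log2 fold change of tumors against peritumoral tissue was 2.36 (SE 0.58). Against nonDEN L-WD it was 4.05 (SE 0.89), which became 5.86 without nonDEN L-WD replicate 1 because the remaining libraries were at or near 0. The mean of tumors was at least 7.71-fold higher than nonDEN L-CD, again with those libraries taken at 3 counts.

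**Figure D2:**
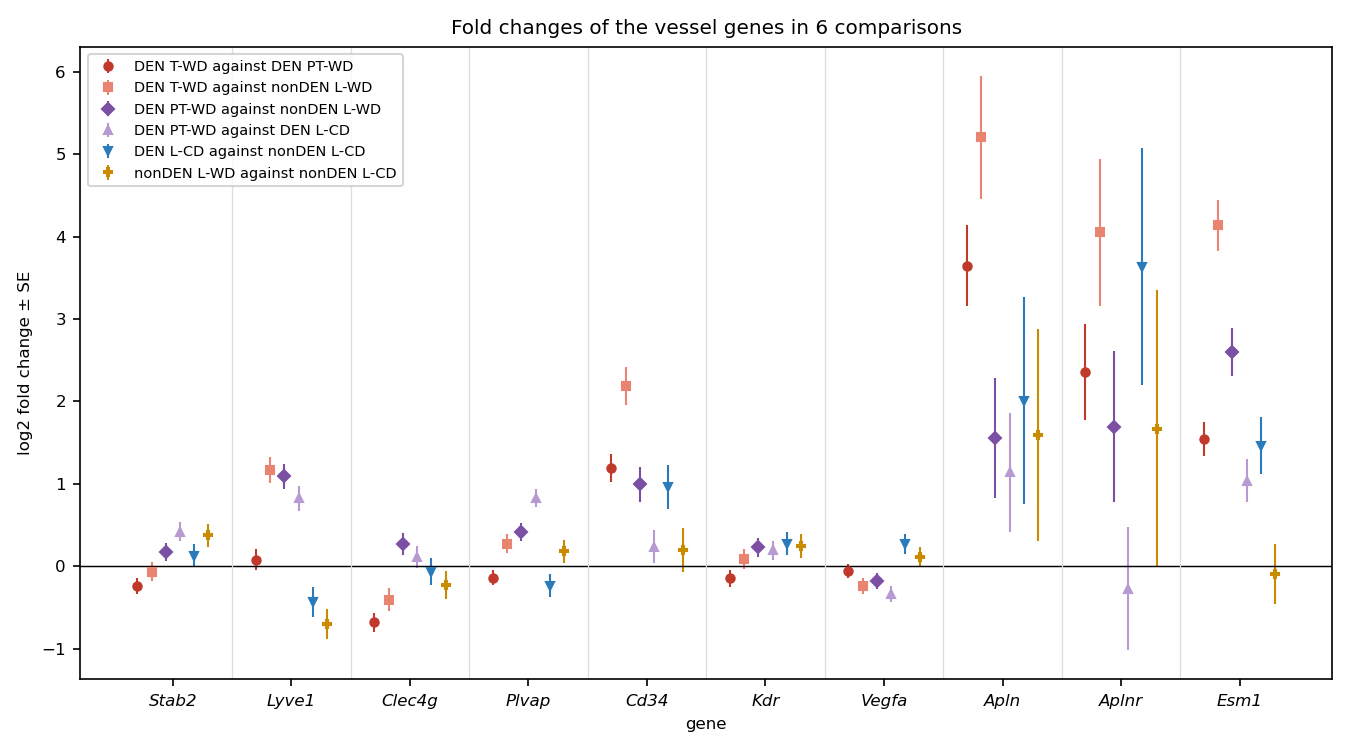
Log2 fold change with its SE for the 10 genes in 6 comparisons from a single fit over all groups. Apln, Aplnr, Esm1 and Cd34 stand above 0 in tumors by either comparison, Lyve1 stands above 0 against nonDEN L-WD in tumors and in peritumoral tissue alike, and Kdr and Vegfa stay between -0.34 and 0.27.

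A gene was called where its adjusted p was at most 0.05 and its log2 fold change at least 1 in size. Between tumors and peritumoral tissue, 4 of the 10 genes were called, Apln, Aplnr, Esm1 and Cd34, all higher, against 7.9% of all tested genes called and 4.81% called higher. The called member nearest to the fold threshold was Cd34 at a log2 fold change of 1.19, and the nearest one not called was Clec4g at an absolute log2 fold change of 0.68. Against nonDEN L-WD, 5 of 10 were called in tumors, these 4 and Lyve1, all higher, where 10.4% of all tested genes were called higher. Since levels in tumors against other tissue chose the genes, nothing is read from either count. In comparisons without tumors, 2 were called higher in DEN PT-WD against nonDEN L-WD (Esm1 and Lyve1; 2.36% of all tested genes), 1 in DEN PT-WD against DEN L-CD (Esm1; 1.52%), 1 in DEN CD liver against nonDEN L-CD (Esm1; 2.76%), and none in untreated WD liver against nonDEN L-CD, where 5.28% of all tested genes were called in either direction. In that last comparison 1 member, Lyve1, passed the adjusted p of edgeR without the fold, and 23.2% of all tested genes did. The comparisons of tumors and of peritumoral tissue with nonDEN L-WD share those 4 control samples, so their values are not independent, and most other pairs of comparisons share a group as well.

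Ratios of levels per length within a library were compared with Stab2 as the reference. The TPM of Esm1 divided by that of Stab2 was 0.0791 ± 0.0047 (SD, n = 3) in untreated CD liver, 0.0572 ± 0.014 (SD, n = 4) in untreated WD liver, 0.193 ± 0.029 (SD, n = 4) in DEN CD liver, 0.294 ± 0.14 (SD, n = 8) in peritumoral tissue and 0.987 ± 0.24 (SD, n = 6) in tumors. Thus Esm1 transcripts were about as abundant as Stab2 transcripts in tumors, where single tumors lay between 0.678 and 1.26. The same ratio for Cd34 was 0.203 ± 0.13 (SD, n = 8) in peritumoral tissue and 0.485 ± 0.19 (SD, n = 6) in tumors. For Clec4g it was 2.86 ± 0.56 (SD, n = 8) and 2.07 ± 0.41 (SD, n = 6), for Plvap 1.26 ± 0.21 (SD, n = 8) and 1.37 ± 0.33 (SD, n = 6), for Lyve1 0.538 ± 0.13 (SD, n = 8) and 0.674 ± 0.16 (SD, n = 6), and for Kdr 0.780 ± 0.11 (SD, n = 8) and 0.822 ± 0.052 (SD, n = 6). The ratios of Plvap, Lyve1 and Kdr differed by about the SD or less, those of Esm1, Cd34 and Clec4g by more. Since levels in tumors chose the genes, nothing is read from these differences.

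The balance of the gene classes was taken as the mean log2(TPM + 0.1) of Stab2, Lyve1 and Clec4g minus that of Plvap and Cd34. It was 1.79 ± 0.075 (SD, n = 3) in untreated CD liver, 1.35 ± 0.20 (SD, n = 4) in untreated WD liver, 1.27 ± 0.16 (SD, n = 4) in DEN CD liver, 1.25 ± 0.28 (SD, n = 8) in peritumoral tissue and 0.49 ± 0.33 (SD, n = 6) in tumors. Peritumoral replicate 7, at 0.68, was the only library outside tumors within the tumor range. Minus Apln, Esm1 and Kdr instead, the balance was 3.96 ± 0.23 (SD, n = 3), 3.65 ± 0.22 (SD, n = 4), 3.13 ± 0.24 (SD, n = 4), 3.08 ± 0.23 (SD, n = 8) and 1.34 ± 0.48 (SD, n = 6) in the same order, and tumors, at 0.47 to 1.80, lay below all other libraries. Tumors lay 0.76 below peritumoral tissue on the first balance and 1.73 on the second. These differences follow from how the genes were chosen and carry no test.

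**Figure D3:**
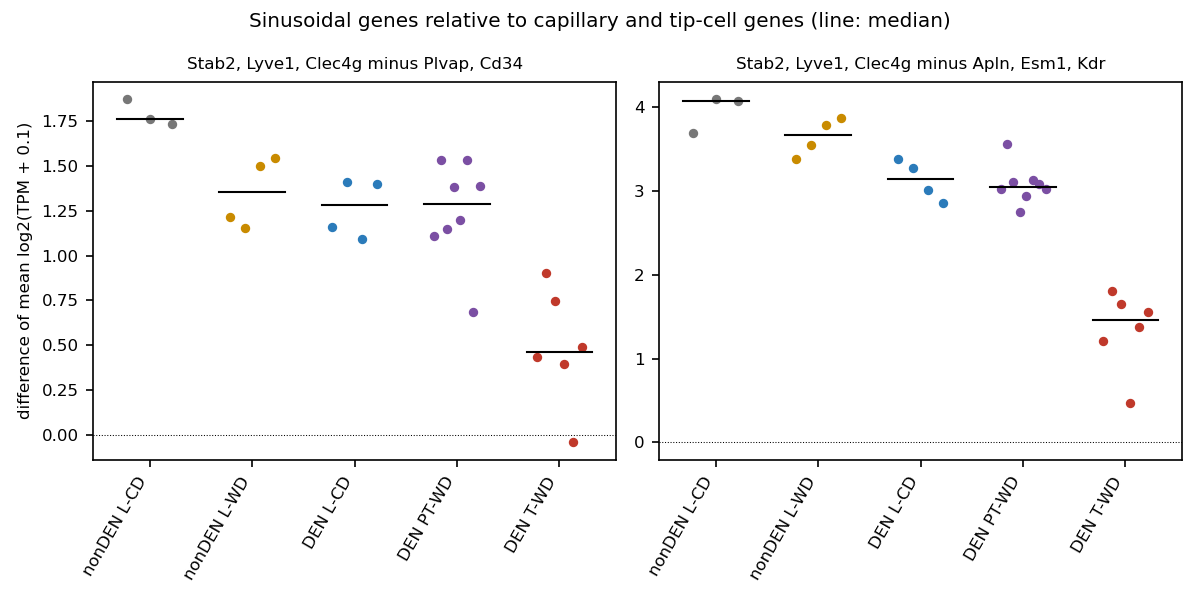
Difference of mean log2(TPM + 0.1) between sinusoidal genes and, at left, capillary genes or, at right, tip-cell genes in each library by group, with lines at medians. Tumors are lowest in both panels, with 1 peritumoral library at 0.68 inside the tumor range at left.

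Other genes of the same vessels were taken from lists that hold none of the 10, and here the test between tumors and peritumoral tissue is given, with p adjusted over all genes by edgeR. These lists too were drawn up with earlier results known. Of 14 further genes of sinusoidal endothelium, 11 were lower in tumors at the adjusted p and none higher, where 18.1% of all tested genes were lower. Their median log2 fold change was -0.39, against 0.01 over all tested genes. Only Rspo3, the R-spondin with which endothelium sustains Wnt signalling in hepatocytes, passed the fold threshold as well, at -1.02 (SE 0.10, adjusted p = 2.12e-07), where 3.09% of all tested genes were called lower. It had 174 to 241 normalized counts in peritumoral tissue and 85.5 to 118 in tumors, with no overlap, and its log2 fold change was -0.96 without tumor replicate 5 and -0.99 without peritumoral replicate 1 or 2. Wnt2, a Wnt ligand of the same cells, gave -0.83 (SE 0.20, adjusted p = 0.0022), and Stab1, the relative of Stab2, gave -0.06 (SE 0.074, adjusted p = 0.533). On the TPM scale without centring, 5 of the 14 were lower at the adjusted p. Against nonDEN L-WD, 6 of the 14 were lower in tumors at the adjusted p and 1 was higher, where 23.1% of all tested genes were lower, and the median was -0.14. Peritumoral tissue itself was higher than nonDEN L-WD for 3 of the 14, where 7.5% of all tested genes were, with a median of 0.20. Markers of Kupffer cells, which share the sinusoid, moved with this list between tumors and peritumoral tissue. At the adjusted p 5 of 8 were lower, where 18.1% of all tested genes were, and 3 were called lower, where 3.09% were. The calls were Marco at -2.04, Timd4 at -1.68 and Clec4f at -1.04. Clec4f fell below the fold threshold with the replicate block (-0.968) and on the TPM scale (-0.931). It did so too without peritumoral replicate 2 or 8 or tumor replicate 2, 3 or 4. The summed TPM of these 8 genes was 215 to 486 in peritumoral tissue and 180.3 to 310.4 in tumors, none of them was at 0 in either group, and their part in the result was not tested.

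Of 16 genes common to endothelial cells, none was called between tumors and peritumoral tissue, where 7.9% of all tested genes were. At the adjusted p 4 were higher and 3 were lower, where 19.5% and 18.1% of all tested genes were. The median was 0.16. On the TPM scale without centring 6 were higher and 0 lower, with a median of 0.29. Against nonDEN L-WD, 11 of the 16 were higher in tumors at the adjusted p and none lower, where 25.9% of all tested genes were higher, with a median of 0.43. Pecam1, the defining junction protein of endothelium, gave 0.28 (SE 0.071, adjusted p = 0.00321) and Cdh5, its cadherin, 0.23 (SE 0.094, adjusted p = 0.0638). The summed TPM of the 16 was 150.5 to 193 in peritumoral tissue and 180.1 to 220.3 in tumors.

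Of 14 genes of capillaries and larger vessels, 13 were tested, 4 were higher and 2 lower at the adjusted p, where 19.5% and 18.1% of all tested genes were, and 2 were called higher, where 4.81% of all tested genes were, Ly6c1 at 2.23 (SE 0.36, adjusted p = 5.26e-05) and Rgcc at 2.22 (SE 0.47, adjusted p = 0.000727). Ly6c1 had 17.4 to 41.0 normalized counts in peritumoral tissue and 52.5 to 288 in tumors, and its reads can be shared with the near-identical Ly6c2. Rgcc had 0 to 4.22 and 3.82 to 14.0, so its call rests on few reads. Rgcc was also lower in peritumoral tissue than in nonDEN L-WD (-1.84, adjusted p = 0.0272 by edgeR), and tumors against nonDEN L-WD gave 0.38 (adjusted p = 0.553). The median of the list was 0.04, and Vwf, the clotting factor of large vessels, was lower by the adjusted p (log2 -0.26, SE 0.084, adjusted p = 0.019).

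Tip-cell genes had the highest median of the vessel lists. Of 12 such genes, 11 were higher in tumors at the adjusted p, where 19.5% of all tested genes were, and 6 were called, where 4.81% were. The median log2 fold change was 0.98. The calls included Unc5b, the netrin receptor of tip cells, at 1.43 (SE 0.19, adjusted p = 6.42e-06), and Angpt2, the ligand that loosens vessels, at 1.20 (SE 0.20, adjusted p = 7.62e-05). The chains of type IV collagen, the scaffold of basement membranes, were called too, Col4a1 at 1.08 (SE 0.15, adjusted p = 7.19e-06) and Col4a2 at 1.13 (SE 0.12, adjusted p = 3.42e-07). Col4a2 had 765 to 1303 normalized counts in peritumoral tissue and 1934 to 2856 in tumors. A further call, Pdgfb, named here after its value was seen, was at the threshold with 1.01 (SE 0.19, adjusted p = 0.000241). Adm, the peptide adrenomedullin, was the gene that did not pass, at -0.04 (SE 0.19, adjusted p = 0.881). Pgf, the placental growth factor, had 1.05 to 5.91 normalized counts in peritumoral tissue and 3.70 to 30.8 in tumors, and passed the filter on low counts through tumors alone, so that its call is no support. It fell below that filter without tumor replicate 1, 4 or 5 and when only the groups compared were fitted, where 10 of 11 genes were higher at the adjusted p, 5 were called and the median was 0.95. Without tumor replicate 4 the calls were 3, since Angpt2 and Col4a1 fell below the fold threshold as well, and without replicate 1 or 5 they were 4. On TPM centred by library the calls were 2. Peritumoral tissue itself was higher than nonDEN L-WD at the adjusted p for 7 of the 12 genes, where 7.5% of all tested genes were. It was lower for 0, and the median was 0.60. Against DEN CD liver the median of peritumoral tissue was 0.64, and no gene of the list was called in either comparison. Collagens and Pdgfb are also made by other cells, and the summed TPM of 9 mural cell markers was 55.4 to 87.1 in peritumoral tissue and 62.4 to 88.6 in tumors, with no marker at 0. Of 6 stellate cell markers, Col1a1 (log2 0.95, adjusted p = 0.00176 by edgeR) and Col3a1 (0.60, adjusted p = 0.0109) were higher in tumors, whereas Lrat (-0.90), Dcn (-0.83) and Des (-0.58) were lower. Their summed TPM was 222 to 435 in peritumoral tissue and 183 to 268 in tumors, with no marker at 0. The part of mural and stellate cells in the result was not tested.

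Of 13 further ligands and receptors of the VEGF, angiopoietin and apelin systems, 3 were called higher, where 4.81% of all tested genes were, Angpt2 and, through its tumor counts, Pgf as above and Apela, the second ligand of the apelin receptor, at 3.39 (SE 0.83, adjusted p = 0.00294). Apela rested on 1 tumor: replicate 5 had 1054 normalized counts and the other tumors 70.4, 42.0, 27.8, 13.1 and 166, and without replicate 5 its log2 fold change was 1.54 (adjusted p = 0.0678). On TPM centred by library 1 call was left. A further 4 were lower at the adjusted p, where 18.1% of all tested genes were, among them both neuropilins, co-receptors of VEGF, Nrp1 at -0.46 (SE 0.064, adjusted p = 1.19e-05) and Nrp2 at -0.42 (SE 0.088, adjusted p = 0.000685). The receptor Flt1 gave 0.14 (SE 0.076, adjusted p = 0.151).

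Of 13 genes that respond to low oxygen, as Vegfa does, none was called by edgeR, where 7.9% of all tested genes were, 1 was higher at the adjusted p, where 19.5% were, and 4 were lower, where 18.1% were, and the median was -0.11. Pdk1, which turns pyruvate away from mitochondria, gave -0.78 (SE 0.17, adjusted p = 0.00117), and Slc2a1, the glucose transporter GLUT1, 0.28 (SE 0.15, adjusted p = 0.139).

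**Figure D4:**
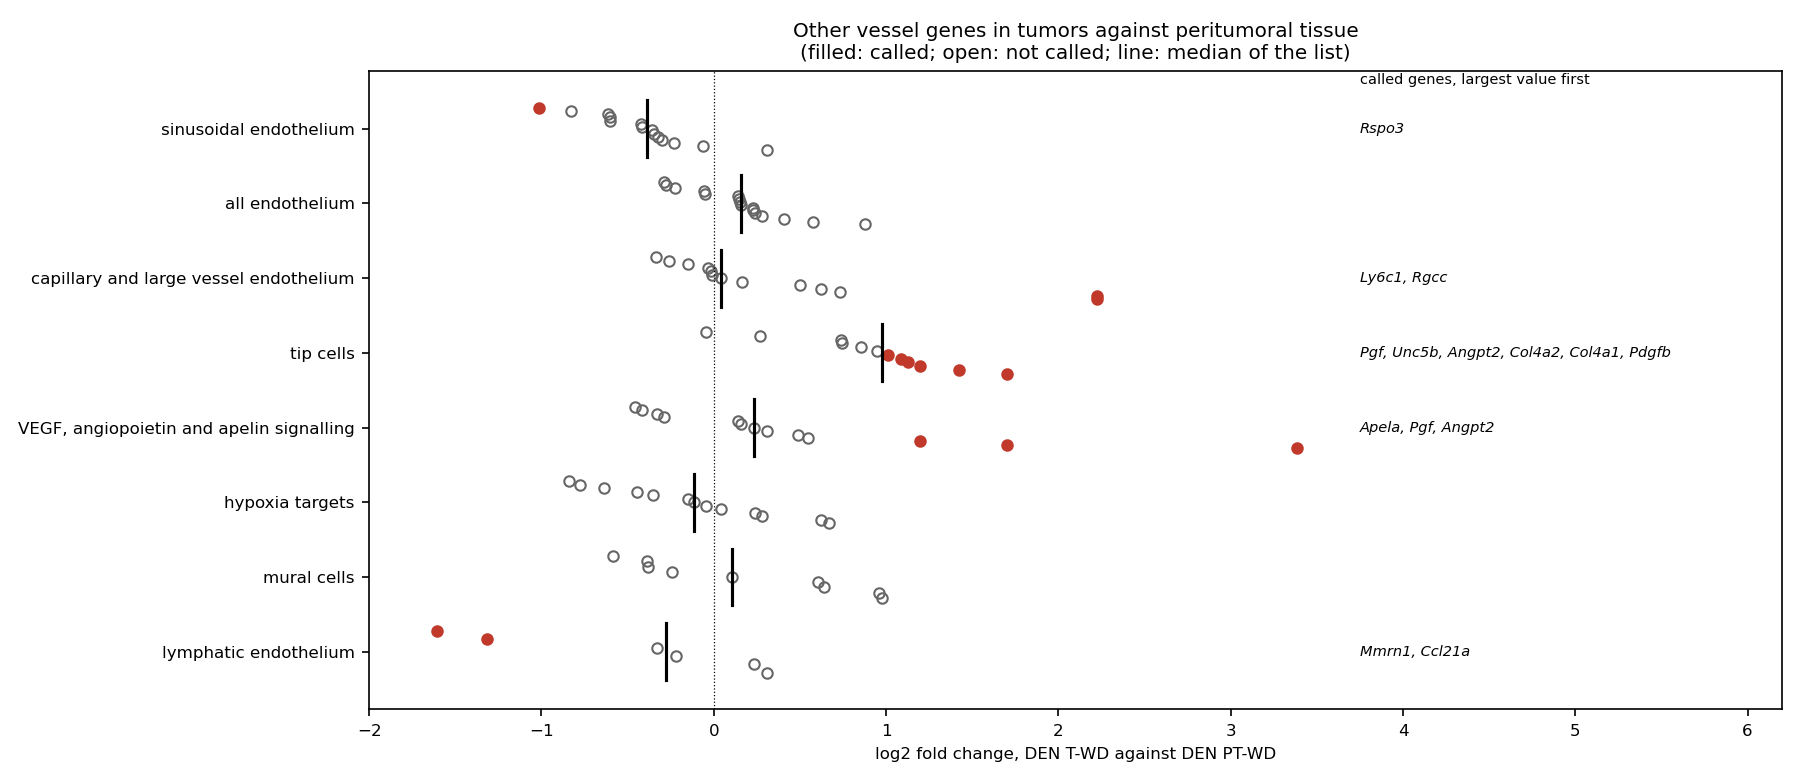
Log2 fold change of tumors against peritumoral tissue for genes of 8 lists, filled where called and open where not, with the list's median as a line and called genes named at right. Tip-cell genes lie mostly to the right, with a median of 0.98, and sinusoidal genes to the left, with a median of -0.39.

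The genes whose profiles over the 25 libraries lay nearest to each of 4 members were found by the root mean square difference of log2 CPM (counts scaled to library size), each profile centred on its own mean. For Stab2 they were Aplp2 (0.124), Tek (0.126), Ptprb (0.128), Kdr (0.153) and Extl2 (0.160), where the median over all tested genes was 0.412. Tek, Ptprb and Kdr encode receptors of endothelial cells. For Plvap they were Rcn1, Igfbp7, Hip1, Adgra2 and Parvb, at 0.173 to 0.182 against a median of 0.469, and for Vegfa they were Scrn2, Cdk2, Pank4, Ppp1r15b and Timmdc1, at 0.120 to 0.131 against 0.384. For Esm1, which varied most of these 4, they were Pak1, Itga6, Fam19a2, Stambpl1 and B4galt6, at 0.534 to 0.569 against 1.56. These 5 had log2 fold changes of tumors against peritumoral tissue from 1.35 to 1.75, and Esm1 itself had 1.54. Nearness was taken over all libraries, tumors included, so these values follow from the choice.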

How the data were processed

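Poly(A) libraries of 25 samples were prepared with the KAPA mRNA HyperPrep kit. Per the labels, the authors used FastQC, STAR and RSEM with GRCm38; versions of STAR and RSEM, annotation release and strand setting are not given in the sources used here. The deposited expected counts are RSEM's estimates of reads per gene, not normalized. The deposited TPM values are shares of transcripts corrected for length, used for levels between genes. The authors' FPKM values and the other columns, gene lengths, were not used.

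These expected counts, rounded, were fitted with edgeR 4.0.16 in R 4.3.3 (quasi-likelihood, TMM, filterByExpr with a minimum count of 10), in a single model of 5 groups without covariates, as the interaction and 6 comparisons. P-values were adjusted by Benjamini-Hochberg over 15625 genes. The study's methods name DESeq2, run here as an alternative (1.42.0). SE is the absolute log2 fold change over the root of F. Alternatives with limma 3.58.1 used log2(TPM + 0.1). Fits were tested on simulated data. Of 200 genes changed 4-fold, 200 were recovered in tumors against peritumoral tissue, with 14520 genes and 0 unchanged genes called. In peritumoral tissue against nonDEN L-WD 200 were recovered, with 14674 genes and 8 unchanged genes called. Only genes above a minimum count were changed, all genes had the same spread, and only the groups compared were fitted. The simulation therefore says nothing on genes with few counts, such as Aplnr.

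The members and lists were chosen with earlier results of these data known. Named were the members, up to 5 called genes of each list with the largest fold change and at least 0.5 TPM in the higher group, 1 or 2 defining genes, and the 5 nearest profiles of Stab2, Plvap, Esm1 and Vegfa. No library was left out. No 2 libraries of a group agreed within sampling noise. Whether equal replicate numbers mark pairs is not known. Correlations of deviations between tumors and peritumoral tissue of equal number ran from -0.23 to 0.34. For replicate 4 alone the value was above those with other numbers, 0.339 against at most 0.304. Low correlations do not exclude a shared mouse. Coordinates are GENCODE M21 on GRCm38, and promoters are RefSeq's. Of 50-base words of the members' exons, 0% were shared with other genes for Apln, Aplnr, Esm1, Plvap, Kdr and Lyve1, and at most 2.14% for the others. Stab2, Clec4g, Cd34, Esm1 and Plvap overlap genes on the opposite strand, whose reads cannot be told apart without strand where exons overlap. Depth limits low genes: counts below 3 per library were taken as the floor. Figures used Python with Matplotlib.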

Additional observations from a re-analysis of the deposited data

Results flagged for a closer look

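Within groups of 4 to 8 libraries, 5 member values stood apart from the rest of their group by the gap to the nearest library relative to the range; chance alone marks about 1 group in 20, and 40 groups were examined. Apln had 409 normalized counts in DEN T-WD replicate 4, where the other tumors had 57.3 to 143. Aplnr had 19.4 in DEN L-CD replicate 3, where the others had 1.21 to 3.18, and this library also had 1537 TPM summed over 6 pancreas markers against 11.35 to 237.2 in its group, whose part was not tested. Cd34 had 295 in DEN PT-WD replicate 7, where the others had 116 to 179. In DEN T-WD replicate 5, Kdr had 1250 and Stab2 1255 normalized counts, below 1725 to 1995 and 1711 to 1964 in the other tumors. In this library Clec4g was also the lowest of the tumors, while the summed TPM of 8 hepatocyte markers was 31860 against 107000 to 127900 in the other tumors, that of 6 leukocyte markers 42.9 against 15.4 to 29.6, and that of 14 genes of capillaries and larger vessels 377.6 against 185.1 to 265.8. The part of these cells in the result was not tested.

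The effect of the Western diet differed between DEN-treated and untreated mice, by the interaction term, for Lyve1 (1.52 on the log2 scale) and for Plvap (0.65). For both, the diet difference under DEN compares peritumoral tissue with liver.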

How the results depend on the processing

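Among uncalled member values the sign turned 40 times over all alternatives and comparisons, including Vegfa and Stab2 against nonDEN L-WD on the TPM scale (0.03 and 0.39 instead of -0.24 and -0.07). The median of all tested genes was 0.13 on the TPM scale, against 0.01 by edgeR, between tumors and peritumoral tissue, and 0.35 against 0.02 between tumors and nonDEN L-WD, and a fit on TPM centred by library was therefore added after seeing the data.

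Peritumoral tissue against DEN CD liver gave 1 called member, and 0 with the replicate block, 3 on the TPM scale and 0 on centred TPM. DEN CD liver against untreated CD liver gave 1, and 2 with DESeq2, on the TPM scale and on centred TPM. Between tumors and peritumoral tissue, sinusoidal genes called were 1, and 0 on the TPM scale. Capillary genes called were 2, and 1 when only the groups compared were fitted, where Rgcc fell below the filter. Tip-cell genes called were 6, and 2 on centred TPM. Signalling genes called were 3, and 1 on centred TPM. Hypoxia genes called were 0, and 1 (Vldlr, lower) with the replicate block. The difference in balance of sinusoidal and tip-cell genes was -1.73, and -1.17 with a pseudocount of 1 TPM. The causes were not tested.

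Leaving out 1 library at a time, members called ran from 2 to 3 in DEN PT-WD against nonDEN L-WD, from 0 to 1 in peritumoral tissue against DEN CD liver, and from 1 to 2 in DEN CD liver against untreated CD liver. In the interaction they ran from 1 to 2, the second being Esm1 (1.24, adjusted p = 0.0403 by edgeR) without DEN PT-WD replicate 6. List calls ran from 0 to 1 for sinusoidal, 3 to 7 for tip-cell, 1 to 3 for signalling and 0 to 1 for hypoxia genes. The balances ran from -0.84 to -0.65 and from -1.83 to -1.56.

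Aplnr lost its call in tumors against peritumoral tissue on centred TPM (1.07). The second call with DESeq2 in DEN CD liver against untreated CD liver was Aplnr, which rests on DEN L-CD replicate 3, since the lower bound of 1.81-fold over a group at the floor became 0.539 without it. Cd34 passed the fold threshold in DEN PT-WD against nonDEN L-WD when any of 7 libraries was left out (1.01 to 1.08). Whether replicate numbers mark pairs is not known, and with the replicate block Apela was no longer called (1.88, adjusted p = 0.152 by edgeR). Apln and Aplnr, at or below 20.2 normalized counts outside tumors, rest on few reads there.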

Other observations

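Lists that bear on neighbouring cells were also counted between tumors and peritumoral tissue. Of 6 genes of lymphatic endothelium, 2 were called lower by edgeR's quasi-likelihood test with adjustment over all genes, where 3.09% of all tested genes were. Ccl21a, the chemokine of lymphatic vessels, gave -1.61 (SE 0.47, adjusted p = 0.0092) with 19.1 to 160 normalized counts in peritumoral tissue and 7.37 to 27.1 in tumors. Mmrn1, a multimerin of the same vessels, gave -1.31 (SE 0.35, adjusted p = 0.00498), and without DEN PT-WD replicate 7, which holds its highest count, the value was below the fold threshold at -0.85 (adjusted p = 0.00855). Prox1, the factor that defines this lineage and is also made by hepatocytes, gave -0.22 (SE 0.11, adjusted p = 0.13). No gene of the list was higher at the adjusted p, and 2 were without tumor replicate 5.

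Over all tested genes 4.81% were called higher, 3.09% were called lower, and 19.5% were higher and 18.1% lower at the adjusted p. Of 9 mural cell genes none was called, 3 were higher at the adjusted p and 3 were lower. Kcnj8, a pericyte potassium channel, gave 0.96 (SE 0.15, adjusted p = 4.26e-05) and Rgs5, a pericyte regulator of G proteins, -0.38 (SE 0.12, adjusted p = 0.0158). Of 8 hepatocyte genes 1 was called higher and 1 lower, of 6 leukocyte genes none, of 6 stellate cell genes none, with 2 higher and 3 lower at the adjusted p, and of 6 pancreas genes none. The pancreas genes had a median of -2.16, which was -1.13 without DEN PT-WD replicate 1, with 0 of 6 lower at the adjusted p, and -5.21 without tumor replicate 6, with 6 of 6 lower. Of 5 bile duct genes 2 were called higher, Spp1 at 1.97 (SE 0.27, adjusted p = 8.86e-06) and Sox9 at 1.38 (SE 0.22, adjusted p = 4.55e-05), while Krt19, which defines the duct, gave -0.96 (SE 0.46, adjusted p = 0.109). The summed TPM of the bile duct genes was 72.7 to 325 in peritumoral tissue and 385 to 833 in tumors.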
